A study of Mus musculus with 16 samples.

Results

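The beta-tubulin genes Tubb2a, Tubb2b, Tubb3, Tubb4a, Tubb4b, Tubb5 and Tubb6 were followed through 12 clonal mouse cell lines, 7 genes of the 50600 listed by Ensembl identifier in each library. The group was chosen by gene family and by the allelic ratio of Tubb2a, which came from the 129 allele in clone NPC_F5 and from the Cast allele in clone NPC_mG6. The allelic ratios of Tubb2a are therefore given below as a description, with no test between alleles or between clones. Only the 2 libraries of a Ch clone were compared. The total levels and the values of the other 6 genes were not criteria of this choice. It was made with earlier results of these data known, so tests of these values may not be independent of it. All cells are F1 hybrids of the strains 129/Sv (mother) and Cast/EiJ (father), so that reads covering a strain difference can be assigned to 1 parental allele. Male or female hybrid embryonic stem cells were turned into neural progenitor cells (NPCs), single NPC colonies were expanded as clones, and some clones were then differentiated with BMP4 into astrocytes. The astrocyte clones Astro_129, Astro_C2 and Astro_G4 (female) and Astro_mC3 and Astro_mE6 (male), and the NPC clones NPC_F5 (female), NPC_mG2 and NPC_mG6 (male), had 1 poly(A)-enriched library each. The male NPC clones Ch3, Ch5, Ch7 and Ch8 had 2 libraries each, made after ribosomal RNA depletion. Each clone is 1 line, and the astrocyte and NPC clones are different clones. A clone and its library therefore cannot be told apart outside the Ch clones, and p-values measure only the spread between these samples.

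Tubulin alpha and beta chains form the dimers from which microtubules are built, the filaments that make up the mitotic spindle and that support neurites and transport in neural cells. The beta chains are encoded by a family of genes, the isotypes, whose proteins are nearly identical over most of their length and diverge at the carboxy-terminal tail. Tubb5 is the broadly expressed isotype of dividing cells, Tubb3 is used as a marker of neurons, Tubb2a, Tubb2b and Tubb4a are abundant in brain, and Tubb4b and Tubb6 are found in many tissues. Free tubulin dimers lower the stability of tubulin mRNAs, so that the total level of the family is autoregulated.

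On the GRCm38 assembly, Tubb2a (ENSMUSG00000058672.6) lies on chromosome 13 from 34074278 to 34078008 and Tubb2b from 34127008 to 34130354 on the same chromosome, 49000 bases apart. Tubb3 is on chromosome 8 (123411553 to 123422015), Tubb4a and Tubb5 are on chromosome 17 (57080061 to 57087600 and 35833920 to 35838301), and Tubb4b is on chromosome 2 (25222158 to 25224702). The neighbours Tubb2a and Tubb2b are so alike that not every read can be placed between them. In GENCODE vM1 transcripts their coding sequences have the same length of 1338 bases and 1291 of these, 96.5%, are identical, with 1 identical run of 551 bases. Of the 1510 windows of 75 bases in the Tubb2a mRNA, 618 (40.9%) occur unchanged in the Tubb2b mRNA, while 0 occur in the mRNA of any of the other 5 genes. The stretch of 150 coding bases in which the pair differs most, coding positions 35 to 184, is shown with the 21 differing bases in capitals, since reads over such bases are the ones that separate both genes.
Tubb2a: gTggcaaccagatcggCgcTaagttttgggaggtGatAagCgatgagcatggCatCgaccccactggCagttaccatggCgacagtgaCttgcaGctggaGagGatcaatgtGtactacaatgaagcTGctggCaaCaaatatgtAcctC
Tubb2b: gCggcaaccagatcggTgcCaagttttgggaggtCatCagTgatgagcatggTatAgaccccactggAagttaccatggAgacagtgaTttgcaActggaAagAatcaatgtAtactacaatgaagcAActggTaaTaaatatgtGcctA

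Promoter sequences from RefSeq (GRCm38.p6) were matched for 5 of the 7 genes. Those of Tubb2a, whose allele differed between clones, of Tubb4a, which was also found from opposite alleles, and of Tubb5, which was biallelic in every clone, are shown as the 250 bases before the start site. The regions are chr13:34078009-34078258, chr17:57087601-57087850 and chr17:35838302-35838551, all read on the minus strand. Capitals mark the cAMP response element palindrome TGACGTCA, the TATA box TATAAA, the GC box GGGCGG and the CCAAT box CCAAT, each searched on both strands. No motif contains another, and no matches overlapped.
Tubb2a: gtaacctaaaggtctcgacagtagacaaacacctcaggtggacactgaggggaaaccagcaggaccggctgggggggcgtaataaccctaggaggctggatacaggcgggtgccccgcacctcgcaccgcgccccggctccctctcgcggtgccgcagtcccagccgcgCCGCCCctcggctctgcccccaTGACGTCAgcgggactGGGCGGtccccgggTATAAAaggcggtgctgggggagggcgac
Tubb4a: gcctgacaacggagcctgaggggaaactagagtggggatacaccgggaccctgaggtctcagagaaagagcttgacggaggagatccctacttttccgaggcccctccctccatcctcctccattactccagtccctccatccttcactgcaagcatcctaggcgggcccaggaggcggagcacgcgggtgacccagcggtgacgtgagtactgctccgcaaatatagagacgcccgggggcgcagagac
Tubb5: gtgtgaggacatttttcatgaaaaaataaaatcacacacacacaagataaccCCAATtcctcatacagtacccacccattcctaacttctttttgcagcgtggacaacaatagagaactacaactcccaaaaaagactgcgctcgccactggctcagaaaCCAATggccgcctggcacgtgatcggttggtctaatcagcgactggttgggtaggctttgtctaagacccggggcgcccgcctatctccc

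The Tubb2a promoter held TGACGTCA, present in 1.55% of the 32851 promoters of this length, together with TATAAA (12.4% of promoters) and GGGCGG (32.7%). It held no CCAAT (33.8% of promoters), which was found upstream of Tubb5. Tubb4a held none of the 4 motifs. CpG dinucleotides numbered 22 in the Tubb2a window, 14 in that of Tubb4a and 10 in that of Tubb5, against a median of 6. As many as in Tubb2a or more were found in 14.8% of promoters. The windows of Tubb3 and Tubb4b, whose letters are not shown, had 21 and 13 CpG dinucleotides, and both held GGGCGG and CCAAT. These matches describe the letters only.

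Between 78257443 and 93963293 reads per astrocyte library, 69925081 and 105892734 per poly(A) NPC library and 20871111 and 30920672 per Ch library were counted on genes. The labelled cell states were checked on marker genes. The summed level of 10 proliferation markers was 72.6 to 115.8 CPM (reads of a gene scaled to the total reads of its library) in the 5 astrocyte libraries and 1665 to 2045 CPM in the 3 poly(A) NPC libraries, and that of 9 astrocyte markers was 1392 to 4808 and 1115 to 1923 CPM, which overlap. The intermediate filament gene Gfap averaged 555.8 CPM in astrocytes and 1.58 CPM in poly(A) NPCs. In the edgeR comparison described below, 4 of these 9 markers, Gfap among them, were higher in astrocytes. Of the others, 1 was lower and 4 did not pass, where 13.0% of all genes tested were higher and 12.6% lower. The mature neuron marker Rbfox3 and the myelin genes Mbp, Mog and Mag were under 1 CPM in every astrocyte library.

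The allelic expression ratio is the share of Cast reads among allele-specific reads, in percent, and is given where a clone had at least 20 such reads. Ratios under 15% or over 85% are called monoallelic, from 35 to 65% biallelic, and the others biased. Tubb2a was monoallelic in 2 of the 12 clones, and from opposite parental alleles. In NPC_F5 the ratio was 2.78% (152 of 5463 allele-specific reads, 95% Wilson interval 2.38 to 3.25), and in NPC_mG6 it was 99.2% (4471 of 4508 reads, 98.9 to 99.4). In the third poly(A) NPC clone, NPC_mG2, it was 59.95% (7416 reads, 58.8 to 61.1). Intervals cover counting error only, since amplified reads are not independent molecules.

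The Ch clones gave Tubb2a ratios of 57.6% (Ch3), 58.6% (Ch5), 59.3% (Ch7) and 55.1% (Ch8). Of the 5 astrocyte clones, 4 were close to these, with 57.1% in Astro_129, 57.9% in Astro_C2, 56.4% in Astro_mC3 and 62.3% in Astro_mE6. Apart from the 2 monoallelic clones, every clone thus lay above equal expression, on the Cast side. The ratio of Astro_G4 was 72.9%, in the biased range, on only 118 allele-specific reads. Its interval (64.2 to 80.1) reaches into the biallelic range. Monoallelic expression from the 129 allele in 1 clone and from the Cast allele in another was found for 95 of 9540 autosomal genes with enough reads in all 12 clones (0.996%), and Tubb2a is 1 of them by the way it was chosen.

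**Figure D1:**
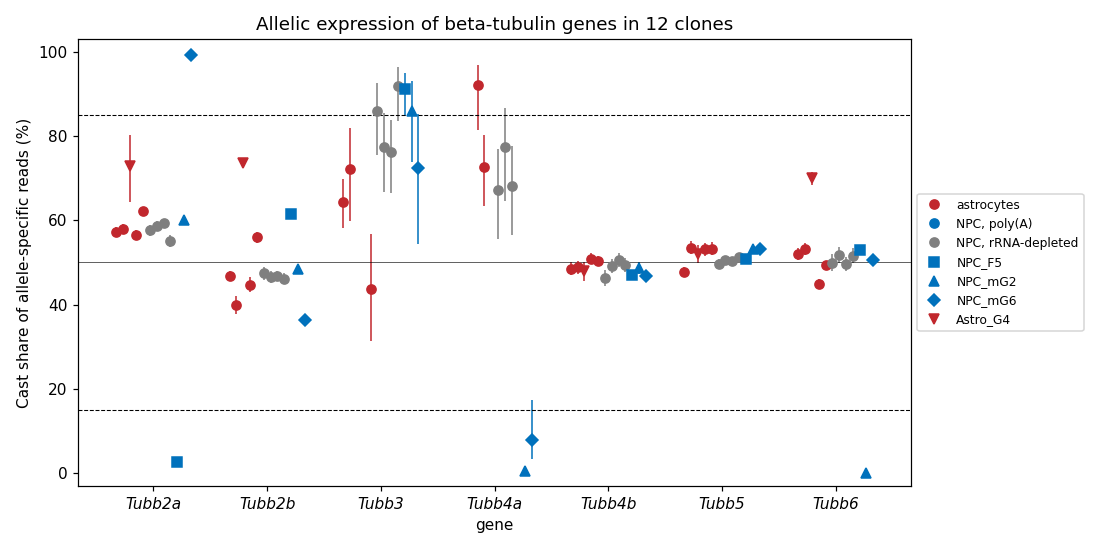
Share of Cast reads (percent of allele-specific reads, vertical axis) of each beta-tubulin gene (horizontal axis) in each clone with at least 20 such reads, with 95% Wilson intervals and dashed lines at 15 and 85%. Tubb2a sits at 2.78% in NPC_F5 (square) and 99.2% in NPC_mG6 (diamond), while Tubb4b and Tubb5 stay between 46.3 and 53.5% in all 12 clones.

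Split by allele, the active copy of Tubb2a in the monoallelic clones was set beside the same copy in the other NPC clones and in astrocytes. The 129 allele gave 50.2 CPM of allele-specific reads in NPC_F5 and 42.5 CPM in NPC_mG2, between 42.6 and 58.5 CPM in the Ch clones, and from 0.399 (Astro_G4) to 61.6 CPM (Astro_mE6) in astrocytes. The Cast allele gave 54.7 CPM in NPC_mG6, 63.6 CPM in NPC_mG2, between 56.6 and 85.4 CPM in the Ch clones, and from 1.07 (Astro_G4) to 101.9 CPM (Astro_mE6) in astrocytes. Against NPC_mG2, the poly(A) NPC clone with both alleles active, the 129 value of NPC_F5 was thus higher and the Cast value of NPC_mG6 lower. The Ch libraries differ in preparation. Of all their reads, 18.9 to 21.1% were assigned to an allele, against 30.5 to 31.8% in poly(A) NPCs, so their levels are not directly comparable. The other allele was at 1.44 CPM in NPC_F5 and 0.452 CPM in NPC_mG6. Both alleles together thus gave 51.6 CPM in NPC_F5 and 55.1 CPM in NPC_mG6, below the 106.1 CPM of NPC_mG2. On all reads Tubb2a was at 274.8 CPM in NPC_F5, 198.1 CPM in NPC_mG6 and 369.4 CPM in NPC_mG2. Relative to NPC_mG2, the contrast on all reads was thus smaller for NPC_F5 and about the same for NPC_mG6. With 1 library for each of these clones, these differences have no replicate check.

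The share of Tubb2a reads that could be assigned to an allele differed between clones. It was between 27.0 and 30.6% in the Ch clones, 28.7% in NPC_mG2, 27.8% in NPC_mG6 and between 32.6 and 37.8% in the 4 astrocyte clones other than Astro_G4. It was 18.8% in NPC_F5 and 2.02% in Astro_G4. These 2 clones also had the highest ratio of Tubb2b reads to Tubb2a reads, 2.40 in NPC_F5 and 5.43 in Astro_G4, against 0.340 to 1.40 in the other 10 clones. In Astro_G4 Tubb2a had 1.47 CPM of allele-specific reads, against 73.5 to 163.5 CPM in the other astrocyte clones, while its total stood at 72.8 CPM. The ratios of Tubb2a and Tubb2b in that clone were 72.9 and 73.6%. Whether reads of the identical Tubb2b run were counted on Tubb2a was not tested. The total of Tubb2a in these clones, and its ratio in Astro_G4, are uncertain for that reason.

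**Figure D2:**
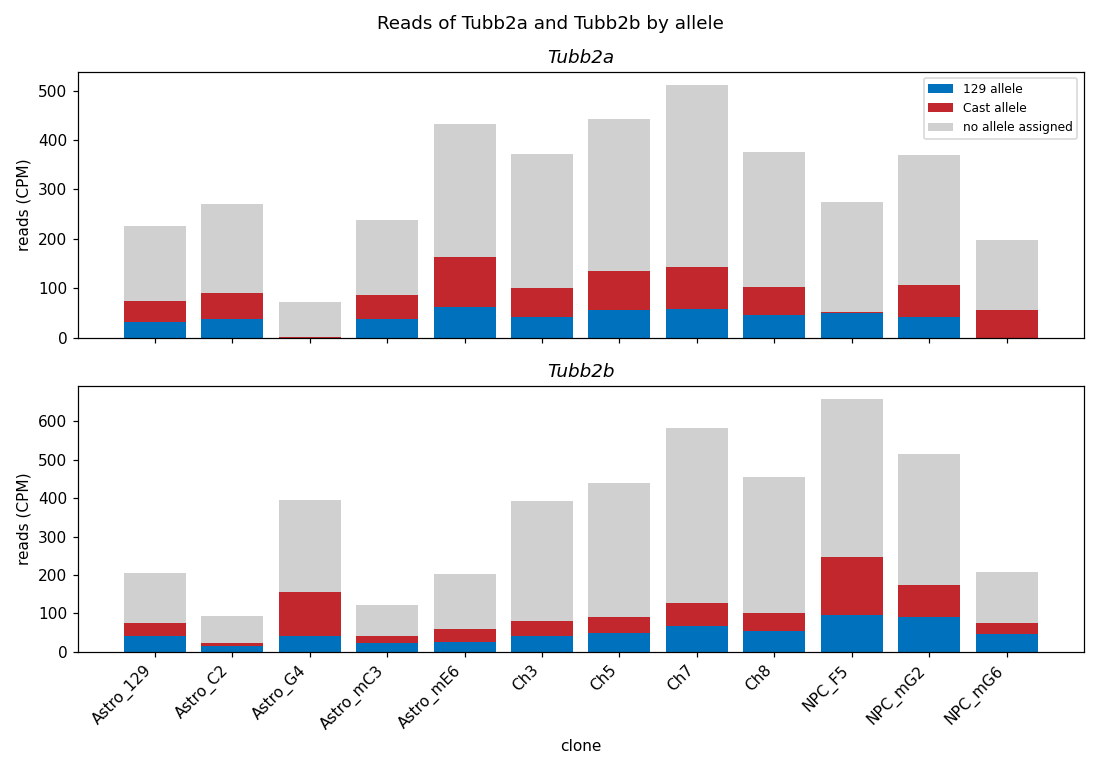
Stacked levels (CPM, vertical axis) of reads assigned to the 129 allele, to the Cast allele and to neither, for Tubb2a and Tubb2b in each of the 12 clones (horizontal axis). NPC_F5 shows Tubb2a reads of the 129 allele, NPC_mG6 those of the Cast allele, and Astro_G4 has 1.47 CPM of allele-specific Tubb2a reads under a total of 72.8 CPM.

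Tubb2b was biallelic in 11 of 12 clones, with ratios from 36.2 to 73.6%. It was 46.1 to 47.4% in the 4 Ch clones and 48.4% in NPC_mG2. In NPC_F5, where Tubb2a came from the 129 allele, Tubb2b was at 61.5% Cast (26125 reads). In NPC_mG6, where Tubb2a came from the Cast allele, it was at 36.2% (6121 reads). In both clones Tubb2b thus stood on the side away from the active Tubb2a allele. The astrocytes ranged from 39.9% in Astro_C2 to 56.0% in Astro_mE6 and 73.6% in Astro_G4. With 1 library for each of these clones, the spread between repeat libraries of an astrocyte clone was not measured.

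Cast-monoallelic expression as of Tubb2a in NPC_mG6 was not seen in the genes around it. The 4 nearest genes on each side with enough reads gave 56 values in the 7 NPC clones, of which 45 were biallelic and 8 monoallelic. Over all 12 clones, 5.60% of values of autosomal genes were monoallelic. Of the 8 neighbour values, 7 belonged to Serpinb6a, a serine protease inhibitor gene, which lay between 5.87 and 9.93% Cast in all 7 NPC clones. The remaining value was that of Bphl, a hydrolase gene whose annotated end is 204 bases from Tubb2a. Bphl was at 3.30% in NPC_F5 (879 reads) but at 41.1% in NPC_mG6 and 47.0% in NPC_mG2, and between 32.1 and 47.2% in the Ch clones. NPC_F5 was therefore 129-monoallelic for Bphl and Tubb2a together, while Ripk1 on the far side of Bphl was at 54.4% in that clone. In NPC_mG6 the flanking genes Bphl, Ripk1 and Psmg4 were at 41.1, 52.6 and 53.6%. The reads were counted by strand. Astrocyte clones differed at 2 other neighbours. Nqo2 was at 0% in Astro_129, 3.92% in Astro_mE6 and between 41.4 and 54.9% in the other astrocyte clones. Pxdc1 was at 0% in Astro_129, 74.8% in Astro_mE6 and between 27.1 and 49.5% in the others.

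**Figure D3:**
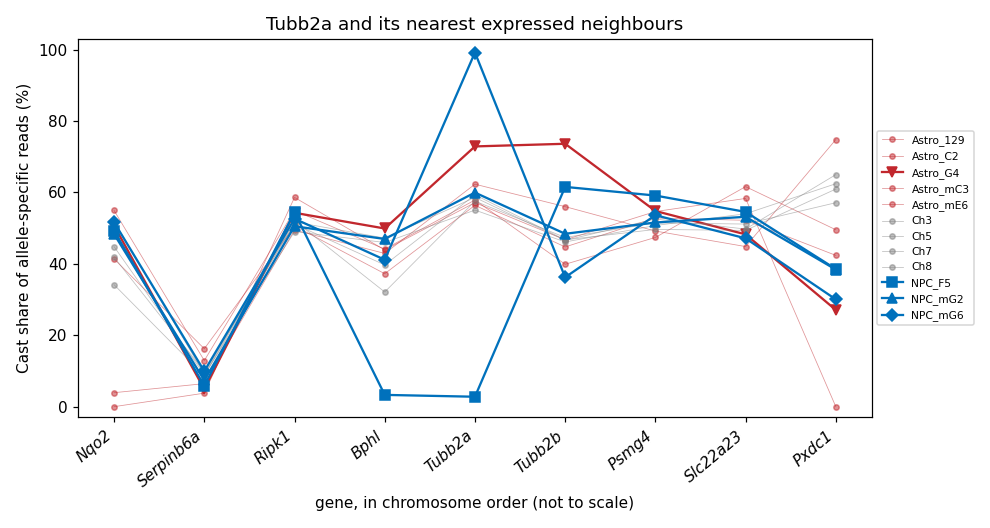
Share of Cast reads (percent, vertical axis) of Tubb2a and its 4 nearest genes on each side with enough reads, in chromosome order and not to scale (horizontal axis), with 1 line per clone. NPC_F5 (squares) drops to 3.30% at Bphl and 2.78% at Tubb2a, and NPC_mG6 (diamonds) rises to 99.2% at Tubb2a with Bphl at 41.1%.

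Chromosome 13 as a whole was balanced in every clone. The median ratio of its other genes was between 48.2 and 49.7%, and that of the 20 Mb window holding Tubb2a between 47.7 and 51.2%. Tubb6, on chromosome 18 from 67390731 to 67402749, behaved differently. It was at 0.0634% Cast in NPC_mG2, with 2 Cast reads among 3153, and between 44.8 and 53.2% in the other clones except Astro_G4, where it was at 69.9%. These 2 clones were also the ones in which all of chromosome 18 left equal expression, with a median of 0.069% over 319 genes in NPC_mG2 and of 65.2% over 325 genes in Astro_G4. The chromosome medians of the other 10 clones lay between 48.7 and 50.1%. The nearest genes of Tubb6, Impa2 and Afg3l2, were at 0% in NPC_mG2 on 785 and 1548 reads, which allows up to 0.382 and 0.194%.

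Total reads of chromosome 18 in NPC_mG2 were not lower than those of other chromosomes. Its genes had a median log2 ratio of 0.04 to the mean of NPC_F5 and NPC_mG6 (321 genes), against 0.02 for the genes of other autosomes. The 129 allele of Tubb6 gave 45.1 CPM in NPC_mG2, against 26.7 CPM in NPC_F5 and 28.0 CPM in NPC_mG6, and the totals of Tubb6 were 144.0, 183.4 and 174.2 CPM. In Astro_G4 the median log2 ratio of chromosome 18 genes to the other 4 astrocyte clones was 0.40 over 307 genes, and that of other autosomes was -0.15. The total of Tubb6 itself went the other way from its chromosome in that clone, with a log2 ratio of -0.995 at 121.6 CPM.

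**Figure D4:**
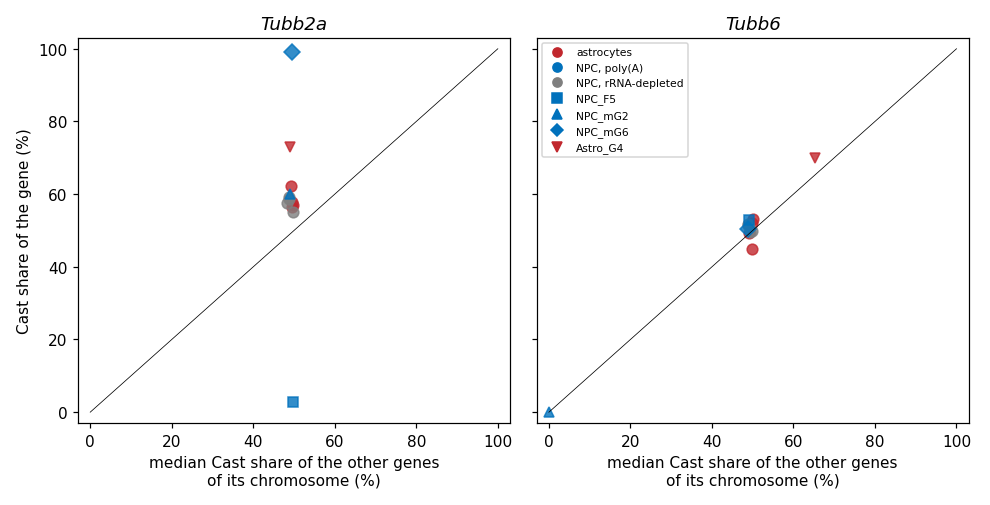
Share of Cast reads of Tubb2a and Tubb6 (percent, vertical axis) against the median share of the other genes of the same chromosome (percent, horizontal axis), with 1 point per clone and the line of equality. The 2 monoallelic Tubb2a clones lie far from the line at balanced chromosome medians near 50%, while Tubb6 lies near the line at 0.0634% in NPC_mG2 and 69.9% in Astro_G4.

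Tubb4a, the isotype of oligodendrocytes and some neurons, was also found from opposite alleles, at low levels. It came from the 129 allele in NPC_mG2 (0.490%, 408 reads) and NPC_mG6 (7.94%, 63 reads, 3.44 to 17.3) and from the Cast allele in Astro_mC3 (92.2%, 51 reads, 81.5 to 96.9). Astro_mE6, Ch5, Ch7 and Ch8 were biased to Cast, at 72.6, 67.1, 77.4 and 68.1% on 53 to 106 reads. The other 5 clones had fewer than 20 allele-specific reads, and Astro_129 had no Tubb4a read at all, which allows up to 3 reads by counting. The 8 nearest genes of Tubb4a gave 56 NPC values, of which 0 were monoallelic and 49 biallelic.

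Tubb3 was skewed to the Cast allele in every NPC clone. The NPC ratios were 91.1% in NPC_F5, 86.0% in NPC_mG2, 72.4% in NPC_mG6, and 85.9, 77.3, 76.1 and 91.9% in Ch3, Ch5, Ch7 and Ch8, on 29 to 123 reads. The 3 astrocyte clones with enough reads gave 64.2% (Astro_129), 72.1% (Astro_C2) and 43.6% (Astro_mE6). Tubb4b and Tubb5 held near equality in all 12 clones, at 46.3 to 50.9% and 47.8 to 53.5%.

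Over all genes and clones, 10 of the 77 member values with at least 20 reads were monoallelic, against 5.60% of 135034 values of autosomal genes. Without Tubb2a these were 8 of 65 values, 4 of them of Tubb3, 3 of Tubb4a and 1 of Tubb6. The 95% intervals of all 4 Tubb3 values cross the limit of 85%, from 73.8 to 93.0 in NPC_mG2 to 84.7 to 94.9 in NPC_F5. Those of Tubb4a in NPC_mG6 and Astro_mC3 cross their limits as well, so these calls lie near the limits. By clone and without Tubb2a, 1 of 5 values was monoallelic in NPC_F5, where 5.63% of autosomal genes were, 3 of 6 in NPC_mG2 (6.65% of genes) and 1 of 6 in NPC_mG6 (3.91% of genes). In NPC_mG2 both the 3 values and the 6.65% include chromosome 18, which holds Tubb6 and had a median of 0.069% Cast. Under limits of 5 and 95% there were 4 such values, those of Tubb2a in NPC_F5 and NPC_mG6 and of Tubb4a and Tubb6 in NPC_mG2. The share of all genes at these limits was not counted. The Tubb2a values chose the group, and that of Tubb6 is shared with chromosome 18 as a whole.

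The Cast and 129 alleles were then compared across clones for the paralogs of Tubb2a, with edgeR's quasi-likelihood test on the allele counts and the clone as a block. Of the 5 paralogs with enough reads in all 7 NPC clones, Tubb3 passed the test, with a log2 ratio of Cast to 129 of 2.38 ± 0.29 (SE, adjusted p = 0.000791) and Cast the higher allele in 7 of 7 clones. Tubb4b had -0.10 ± 0.04 (adjusted p = 0.0585) and Tubb5 0.07 ± 0.03 (adjusted p = 0.110). The adjusted p of Tubb2b was 0.484 and that of Tubb6 0.760, and for the latter NPC_mG2 went against the other clones. The same test called 40.5% of all genes tested. Without Ch7, Tubb4b passed (-0.13, adjusted p = 0.0375), and at a minimum of 50 reads Tubb3 could not be tested.

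In the 5 astrocyte clones 0 of 4 paralogs passed (edgeR, 0 at an unadjusted p under 0.05), where 31.1% of all genes did. Log2 ratios of Cast to 129 were 0.14 ± 0.32 for Tubb2b, -0.04 ± 0.04 for Tubb4b, 0.11 ± 0.06 for Tubb5 and 0.23 ± 0.23 for Tubb6 (SE, n = 5, adjusted p = 0.775, 0.473, 0.216 and 0.488). Without Astro_129, Tubb5 passed (0.17, adjusted p = 0.0281). The difference of the allelic balance between astrocytes and the 3 poly(A) NPC clones passed for 0 of 4 paralogs (edgeR, 0 at an unadjusted p under 0.05) and for 1.08% of all genes, with adjusted p-values from 0.465 (Tubb4b) to 0.923 (Tubb5).

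The error of a ratio was read from the 2 libraries of each Ch clone. Among 27 member values, those of Tubb2a included to measure error only, 0 differed between the libraries, against 0.322% of 42611 values of all genes. In this test (Fisher's exact, two-sided) the smallest adjusted p was 0.255, with 4 at an unadjusted p under 0.05. At so low a share, 0 of 27 does not set these genes apart. For Tubb2a, Tubb2b, Tubb4b, Tubb5 and Tubb6 the median difference was 1.04 points and the largest 3.99 points. Tubb2a gave 59.5 and 56.1% in both libraries of Ch3, 58.7 and 58.4% in Ch5, 59.3 and 59.4% in Ch7, and 54.5 and 55.6% in Ch8. For Tubb3 and Tubb4a, with 26 to 50 reads per library, the libraries differed by up to 23.5 points.

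Total levels, on all reads, gave a different order of the isotypes in the astrocytes and NPCs. In poly(A) NPCs, per kilobase of mRNA, Tubb5 was the leading isotype with 421 ± 62.8 CPM per kb (SD, n = 3), followed by Tubb2b (239.8 ± 119.8), Tubb4b (208.6 ± 31.8), Tubb2a (177.3 ± 54.2) and Tubb6 (95.2 ± 11.7). Tubb3 (3.01 ± 1.46) and Tubb4a (1.85 ± 2.48) were far below, and the spreads of Tubb2b, Tubb4b and Tubb2a overlap. In astrocytes Tubb2a (156.6 ± 81.1, n = 5), Tubb6 (124.3 ± 55.9), Tubb5 (112.6 ± 61.5), Tubb4b (112.5 ± 32.0) and Tubb2b (105.8 ± 61.5) all differed by less than the largest SD among them. Tubb5 made up 33.9 to 41.4% of the per-length total of the family in poly(A) NPCs and 9.58 to 32.5% in astrocytes. In Astro_G4 the leading isotype was Tubb2b, with 46.5%.

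Astrocytes were compared with poly(A) NPCs gene by gene. Tubb5 fell in astrocytes by 1.87 on the log2 scale (SE 0.37, edgeR adjusted p = 0.00857), a level 3.65-fold higher in NPCs. Its values were 570.8, 310.6, 157.3, 244.6 and 205.5 CPM in Astro_129, Astro_C2, Astro_G4, Astro_mC3 and Astro_mE6, and 1295, 1069 and 971.6 CPM in NPC_F5, NPC_mG2 and NPC_mG6. The groups did not overlap, but the share of all genes without overlap was not counted. Astro_129, the highest astrocyte value, was also the astrocyte library with the highest sum of proliferation markers (115.8 CPM). The part of cell division in this difference was not tested. Of the 7 members, 1 was lower and 0 higher (edgeR, 2 lower and 0 higher at an unadjusted p under 0.05, 0 higher with DESeq2), where 12.6% of 18192 genes were lower and 13.0% higher.

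Tubb4b had 163.7, 199.0, 97.8, 217.3 and 221.3 CPM in the astrocytes, in the same order of clones, and 391.3, 312.4 and 296.5 CPM in the NPCs. These groups did not overlap either, which without a share over all genes does not set Tubb4b apart. The change of -0.84 ± 0.27 missed the threshold (edgeR adjusted p = 0.0516). It passed with DESeq2 (adjusted p = 0.0359), with DESeq2's size factors in edgeR (0.0478) and without Astro_G4 (0.0456) or Astro_mE6 (0.0481). Tubb2b ranged from 92.1 to 395.3 CPM in astrocytes and had 658.8, 515.6 and 208.2 CPM in NPC_F5, NPC_mG2 and NPC_mG6. Its change was -1.12 ± 0.50 (adjusted p = 0.136), and without Astro_G4, its highest astrocyte value, it was -1.57 (adjusted p = 0.0388).

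The other 4 genes did not pass the test. Tubb2a had 225.7, 270.7, 72.8, 238.1 and 433.1 CPM in the astrocytes against 274.8, 369.4 and 198.1 CPM in the NPCs, a change of -0.11 ± 0.47 (adjusted p = 0.890). With allele-specific reads only, an alternative chosen after the data were seen, its change was 0.17 (adjusted p = 0.919). Tubb6 had 155.4, 199.5, 121.6, 240.8 and 374.4 CPM in the astrocytes and 183.4, 144.0 and 174.2 CPM in the NPCs (0.44 ± 0.36, adjusted p = 0.400). Tubb3 had 1.24 to 5.07 CPM in 4 astrocyte clones, 17.4 CPM in Astro_129 and 2.89 to 8.33 CPM in NPCs (0.02 ± 0.85, adjusted p = 0.988). Tubb4a was highest in NPC_mG2, at 10.5 CPM, and at most 2.68 CPM in the astrocytes (-2.14 ± 1.65, adjusted p = 0.374). In bulk samples, fewer cells of a type and less RNA per cell cannot be told apart.

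**Figure D5:**
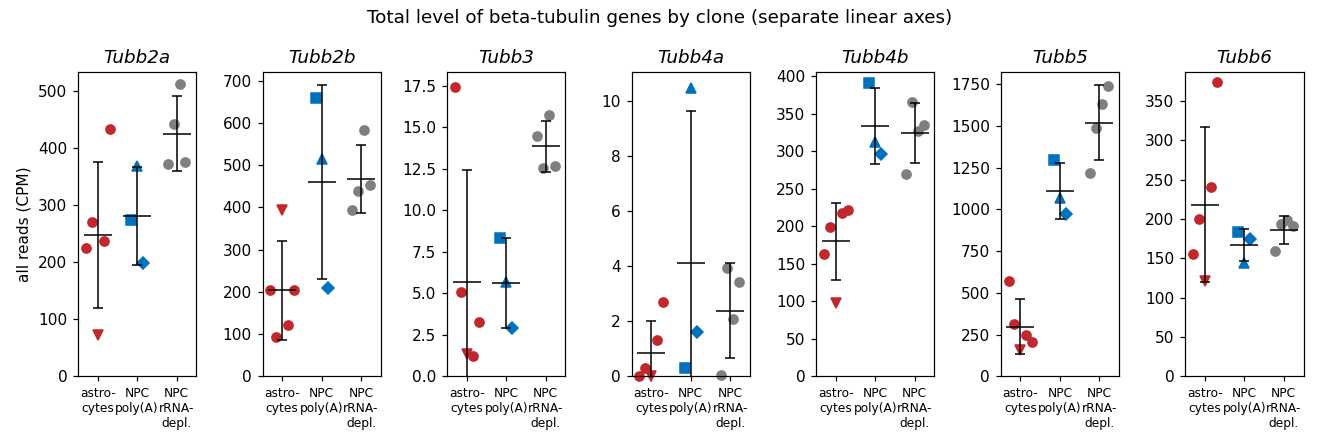
Total level (CPM, linear vertical axes from 0, separate for each gene) in the 5 astrocyte, 3 poly(A) NPC and 4 rRNA-depleted NPC clones (horizontal axis), with 1 point per clone and the mean with SD as bars, cut at 0. The astrocyte points of Tubb5 (157.3 to 570.8 CPM) lie below all NPC points (971.6 CPM and more), while those of Tubb2a overlap with the poly(A) NPCs.

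Among the 4 Ch clones, levels were compared over 2 libraries each. The test for any difference passed for 4 of 7 members, where it passed for 16.6% of 17095 genes. Tubb4a stood out in size. Ch3 had 3 Tubb4a reads in both libraries together (0.0479 and 0.0705 CPM), while Ch5 had 3.99 and 3.90, Ch7 2.01 and 2.19, and Ch8 3.58 and 3.24 CPM (edgeR adjusted p = 2.53e-05). Tubb2a had 372.5, 442.0, 512.1 and 376.2 CPM in Ch3, Ch5, Ch7 and Ch8, Tubb2b 393.2, 440.1, 583.6 and 454.3 CPM, and Tubb5 1221, 1488, 1631 and 1741 CPM. Ch7 was the highest clone for Tubb2a and Tubb2b and Ch8 for Tubb5, with Ch3 the lowest of each. Tubb2a differed by 1.37-fold between the highest and the lowest clone (adjusted p = 0.0458), Tubb2b by 1.48-fold (0.0218) and Tubb5 by 1.43-fold (0.0186). Libraries of 1 clone differed by up to 1.35-fold for Tubb2a, 1.40-fold for Tubb2b and 1.22-fold for Tubb5. Without either library of Ch3 or of Ch7, only Tubb4a of the 7 passed. Tubb4b (adjusted p = 0.132), Tubb6 (0.155) and Tubb3 (0.213) did not pass. Without the filter on low counts Tubb4b (0.00559) and Tubb6 (0.0499) passed as well, 6 of 7 members, and Tubb4b also passed without library 1 of Ch5 (0.0455).

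The rest of the tubulin system was read in the same comparison of astrocytes and poly(A) NPCs, in which the median log2 change of all genes tested was 0.08, with 12.6% of genes lower and 13.0% higher. The counts of each list stand beside these shares as a description, and no difference between lists was tested. Of 5 alpha-tubulin genes tested, Tuba1b and Tuba1c fell, by 0.88 and 0.89 on the log2 scale, and Tuba4a rose by 4.01, with a list median of -0.88. Of 4 gamma-, delta- and epsilon-tubulin genes, Tube1 fell (-0.88, adjusted p = 0.0194), with a list median of -0.65. Of 21 genes for tubulin folding and autoregulation, 8 fell and 1 rose, with a median of -0.30. The subunits Tcp1, Cct2, Cct5 and Cct8 of the CCT chaperonin, which folds newly made tubulin, fell by between 0.84 and 1.07.

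Enzymes that modify tubulin and proteins that bind microtubules were read in the same way. Of 19 modifying enzymes, 5 rose and 1 fell (median 0.08), among them the deacetylase Sirt2 (0.88, adjusted p = 0.0121) and the deglutamylase Agbl3 (1.27, adjusted p = 0.0136), both higher in astrocytes. Of 29 microtubule-associated and destabilising proteins, 7 rose and 4 fell (median 0.23). Kif2c, a microtubule-depolymerising kinesin of the mitotic spindle, fell by 6.45, and Ckap5, a microtubule polymerase, fell by 0.96, while the linker protein gene Clip2 rose by 1.80 and the end-binding gene Mapre2 by 1.46. All 10 proliferation markers fell, with a median of -6.66. Of 7 other beta-tubulin genes and pseudogenes listed, 1 had an identifier in the files and 0 passed the filter on low counts.

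Genes whose ratio across the 12 clones was most like that of Tubb2a were sought among 1093 autosomal genes with enough reads in every clone and a range of at least 50 points. Pearson's r over the 12 clones was highest for Pde12 (0.81), followed by Zfp939 (0.69), 6330403K07Rik (0.66), Atf7ip (0.66) and Decr1 (0.66). These genes lie on chromosomes 14, 7, 11, 6 and 4. Pde12 shared only the NPC_F5 side of the pattern, at 0.109% Cast in that clone and 52.9% in NPC_mG6. Of the 5, 6330403K07Rik had the highest NPC_mG6 ratio, 81.7%, with 24.4% in NPC_F5, so 0 of the 5 were monoallelic from opposite alleles in these 2 clones. The ratios of a clone come from the same library, and the values rest mainly on 2 clones.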

How the data were processed

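RNA-seq reads of 16 libraries were aligned by the authors with TopHat (2.1.0) and Bowtie2 to the mouse genome (GRCm38) masked at strain SNPs, assigned to an allele with SNPsplit and counted per gene by strand with featureCounts (1.5.1). The deposited counts give Cast, 129 and all reads for 50600 genes, unnormalized; the annotation version is not given in the sources used here. The deposited fraction of Cast reads, listed from 10 reads on, equalled the recomputed ratio within 5e-07. Symbols were found for 32722 identifiers and positions for 25861.

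CPM were computed on all counted reads, and both libraries of a Ch clone were summed for ratios. Both libraries of each Ch clone differed beyond sampling noise (chi-square per degree of freedom 10.6 to 60.9). Levels and allele counts were tested with edgeR 4.0.16 (quasi-likelihood, TMM for levels, filter on low counts, Benjamini-Hochberg over all genes, threshold 0.05), with DESeq2 1.42.0 as an alternative, in R 4.3.3. Ratios need 20 allele-specific reads. The 2 libraries of a Ch clone were compared by Fisher's exact test (scipy 1.17.1, Python 3.11.15). Both level tests, the allele test in astrocytes and the Fisher test were also run on simulated data. The members and gene lists were chosen with earlier results of these data known. Named genes were all members, at most 4 per list by adjusted p, the 4 nearest genes on each side of Tubb2a with 20 reads in at least 4 NPC clones, and the 5 genes most like it. Neighbours of Tubb4a and Tubb6 were added after their values were seen. Alternatives covered normalization, filter, read minimum, limits and leaving out each library. Precision is limited by 1 library per clone and by low counts of Tubb3 and Tubb4a.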

Additional observations from a re-analysis of the deposited data

Results flagged for a closer look

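In the 5 astrocyte clones, 17 sets of values (level, allelic ratio and share of allele-specific reads per gene) were searched for a clone far from the others, and 3 were found, where chance gives about 1 in 20. The share of Tubb2a reads assigned to an allele was 2.02% in Astro_G4, far below the other 4 clones. Tubb3 stood at 17.4 CPM in Astro_129, above the other 4 clones. The summed level of 12 neuronal markers in Astro_129 was 869.5 CPM, within the 457.4 to 1306 CPM of the astrocytes. The ratio of Tubb5 was 47.8% in Astro_129, below the other 4 clones.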

How the results depend on the processing

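Tubb5 kept its lower level in astrocytes under every alternative run, with changes of -2.19 to -1.74. The count of members lower in astrocytes was 2 with DESeq2 and with its size factors in edgeR, and from 1 to 3 when 1 library was left out. With a minimum of 50 reads, 0 paralogs differed between alleles in NPC clones, since Tubb3 was then not tested. Leaving out 1 clone gave from 1 to 2 paralogs in NPC clones and from 0 to 1 in astrocytes. The count of members that differed among the Ch clones ran from 1 to 5 when 1 library was left out, which leaves that clone with 1 library assumed to vary like the others, and was 6 without the filter on low counts. Limits of 5 and 95% left 4 monoallelic values of 10, with no share over all genes counted at these limits. Of 72 alternative values of these counts, 60 stayed within 1.5 times the first.

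Library numbers 1 and 2 of the Ch clones were not taken as pairs, since the correlations of their deviations over all genes ran from -0.257 to 0.393. Library 2 had the higher CPM in all 4 Ch clones for 4 members, Tubb2a, Tubb2b, Tubb4b and Tubb5. With the library number as a block, 5 members differed among the Ch clones, Tubb4b added (adjusted p = 0.0395), and 3391 genes in place of 2834. Depth limits Tubb3 and Tubb4a, and the single library of most clones limits every ratio.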
